A study of Homo sapiens with 20 samples.

Results

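The comparison described here is the difference between 2 changes over time: the change of each gene between 12 h and 24 h of combined cisplatin and ammonium tetrathiomolybdate (Cis/TM), minus its change between 12 h and 24 h of cisplatin alone (Cis). It asks which genes took a different course when TM was present. The arrays were chosen by their titles and are 12 of the 20 in the series, with 3 arrays each of Cis/TM 24 h, Cis/TM 12 h, Cis 24 h and Cis 12 h. No control array enters it. All cells were MDA-MB-231, an established human triple-negative breast cancer line, and expression was read on Affymetrix Human Gene 1.0 ST arrays. The other groups were TM 24 h (3 arrays), TM 12 h (2 arrays) and Control (3 arrays, whose labels give no time). The methods name an RNeasy kit for the RNA and the labels name Trizol. Wells were treated in triplicate. Since no source calls them separate cultures, the spread behind the p-values may be technical.

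Cisplatin binds DNA and forms crosslinks within and between strands, and such lesions stop the elongating RNA polymerase II, so a long transcription unit offers more places to stop than a short one. TM is a copper chelator, and copper transporters such as ATP7A also handle platinum drugs. MDA-MB-231 cells carry mutant p53 and a basal, mesenchymal expression profile. Levels are log2 values from robust multi-array averaging (RMA), which corrects, normalizes and summarizes the probes of each transcript. A difference of 1 on this scale is a doubling, and a positive difference of time changes means that the gene moved upwards more, or downwards less, under Cis/TM than under Cis. Fewer cells of a type and less RNA per cell cannot be told apart in such bulk RNA.

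All 10 measured mesenchymal markers had a mean level above the median of all genes. So did 8 of 15 luminal, 3 of 9 endothelial, 2 of 11 fibroblast and 1 of 12 leukocyte markers. On the 12 arrays VIM ran from 11.05 to 11.30 and CD44 from 11.44 to 11.59, whereas ESR1 and CDH1 of luminal epithelium stayed between 3.57 and 4.20 and the leukocyte gene PTPRC between 2.86 and 3.13. EPCAM, an epithelial marker, went the other way, with 7.65 to 8.98, and the fibroblast gene COL1A1 had 6.14 to 6.62. The mean of 15 luminal markers was 5.88 to 6.00 on the Cis/TM 24 h arrays, 6.19 to 6.24 at 12 h of Cis/TM, 6.00 to 6.11 at 24 h of Cis and 6.28 to 6.39 at 12 h of Cis. It was lower at 24 h than at 12 h in both treatments, and its part in the results was not tested. One array stood apart. Cis 12 h A had the highest median of the 12 arrays (5.94, against 5.75 to 5.88 on the others) and the lowest array weight, 0.24, so results are given with and without it. The r between arrays of a group, across genes, was 0.987 to 0.997.

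No gene was called in opposite directions by the 2 treatments over time. Under Cis/TM 1045 genes were called higher at 24 h than at 12 h (5.67% of 18417 tested) and 1487 lower (8.07%), and under Cis 1327 were higher (7.21%) and 629 lower (3.42%), called at an adjusted p under 0.05 and a change over 1.5-fold. The 804 genes called higher in both were 76.9% of the Cis/TM list and 60.6% of the Cis list. The 513 called lower in both were 34.5% of the Cis/TM list and 81.6% of the Cis list. Across the 18417 genes, which are not independent replicates, the time changes had Pearson's r = 0.78. The balance depended on the scaling. Under Cis/TM it was 1347 higher and 1140 lower after median centring of each array, 1204 and 1146 after quantile normalization, and 1252 and 1102 with the trend with level removed. Under Cis the counts were 1575 and 493, 1159 and 773, and 1172 and 674 in the same order. With that trend removed and without Cis 12 h A, a setting added after the data were seen, Cis had 858 higher and 706 lower.

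**Figure D1:**
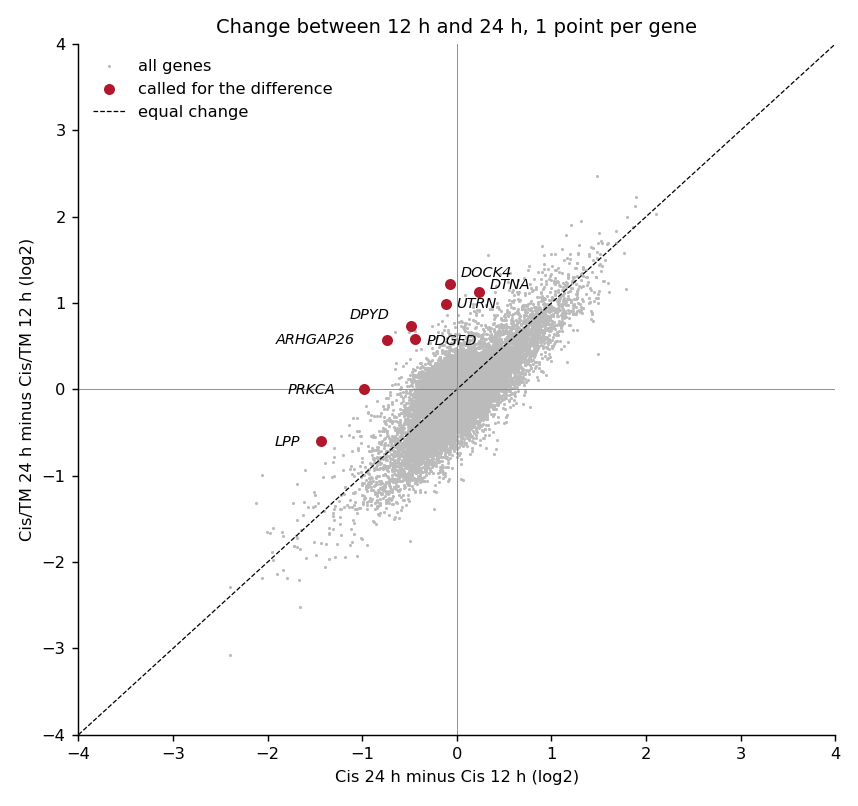
Change between 12 h and 24 h under Cis/TM (vertical axis) against the change under Cis (horizontal axis), in log2 units, with 1 point per gene. The 8 genes called for the difference (red) all lie above the line of equal change, from LPP at the lower left to DOCK4 and DTNA at the top.

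The difference itself passed the test in 8 genes, ARHGAP26, DOCK4, DPYD, UTRN, PDGFD, PRKCA, DTNA and LPP, and all 8 were higher (0.0434% of genes tested, limma with Benjamini-Hochberg adjustment). None was lower (0%). At an unadjusted p under 0.05 and over 1.5-fold, 144 genes were higher (0.782%) and 353 lower (1.92%). The median standard error of a difference was 0.19. ARHGAP26 and PRKCA kept their call when any 1 of the 20 arrays was left out. The number of genes called higher did not hold as well, and was 2 without Cis/TM 12 h B, Cis/TM 24 h A, Cis/TM 24 h B, Cis 12 h B, Cis 12 h C, Cis 24 h B or Cis 24 h C. It was 3 without Cis/TM 12 h C, 5 without Cis/TM 24 h C or Cis 24 h A, 6 without Cis/TM 12 h A and 24 without Cis 12 h A. Of these, leaving out Cis 12 h B also gave 1 gene called lower, FAXC, and leaving out Cis/TM 24 h C gave RRP7A. Leaving out TM 12 h A, TM 12 h B, TM 24 h B or Control C, which add only to the estimate of spread, left 4.

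Gene length did not enter the test. The 8 genes were long, with RefSeq (GRCh38.p14) gene lengths from 257 kb to 843 kb and a median of 494 kb, against 24.5 kb over all 18386 genes with a length. All 8 were called lower than Control under both treatments and at both times, where 2.48% of all genes were called lower at 24 h of Cis/TM, 8.55% at 12 h of Cis/TM, 4.9% at 24 h of Cis and 10.8% at 12 h of Cis. These levels come in part from the arrays that chose the genes and are a description. In TM alone none of them was called for a change between the times (0.00543% of genes were called lower and 0% higher). By shape, 4 were more than 1.5-fold higher at 24 h under Cis/TM and within 1.5-fold under Cis, 1 was within 1.5-fold in both, 2 were within 1.5-fold under Cis/TM and lower under Cis, and 1 was lower in both. Each was measured by 1 transcript cluster.

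ARHGAP26 and DOCK4 encode regulators of small GTPases. ARHGAP26, a GTPase-activating protein, had log2 levels of 8.07, 8.02 and 8.09 at 24 h of Cis/TM and 7.51, 7.37 and 7.59 at 12 h of Cis/TM. Under Cis it had 7.23, 6.98 and 6.93 at 24 h and 7.51, 7.95 and 7.88 at 12 h. The Cis/TM 24 h arrays were thus the highest of the 12 and the Cis 24 h arrays the lowest, with no overlap between them. ARHGAP26 changed by 0.57 over time under Cis/TM, within 1.5-fold (adjusted p = 0.0011), and fell by 0.73 under Cis (adjusted p = 0.00013), a difference of 1.30 (standard error 0.17, adjusted p = 0.00515), or 2.47-fold. Its means were 8.69 at 24 h of TM, 8.77 at 12 h of TM and 9.22 in Control, all above the 12 arrays.

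DOCK4, an exchange factor that activates Rac, had 7.21, 7.05 and 6.84 at 24 h of Cis/TM, and 5.75, 5.73 and 5.98 at 12 h of Cis/TM. Its levels were 6.24, 6.11 and 5.66 at 24 h of Cis, and 5.90, 6.23 and 6.09 at 12 h of Cis. All 3 Cis/TM 24 h arrays lay above the other 9, and the Cis arrays of the 2 times overlapped. The difference was 1.29 (standard error 0.21, adjusted p = 0.0221), made of a rise of 1.21 under Cis/TM and a change of −0.07 under Cis (adjusted p = 0.79). DOCK4 averaged 8.77 at 24 h of TM, 8.69 at 12 h of TM and 8.13 in Control.

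UTRN and DTNA belong to the dystrophin family and its complex, which ties the actin cytoskeleton to the membrane. UTRN, which encodes utrophin, had 8.42, 8.20 and 8.20 at 24 h of Cis/TM, against 7.32, 7.21 and 7.32 at 12 h of Cis/TM. It had 7.32, 7.27 and 7.07 at 24 h of Cis, against 6.94, 7.48 and 7.59 at 12 h of Cis. Only the Cis/TM 24 h arrays stood clear of the rest, and Cis 12 h A was the lowest of the 12. UTRN differed by 1.11 (standard error 0.19, adjusted p = 0.0412), and by 1.31 (adjusted p = 0.000444) without Cis 12 h A. TM 24 h averaged 8.89, TM 12 h 8.88 and Control 9.13.

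For DTNA, which encodes alpha-dystrobrevin, the Cis/TM arrays had 6.02, 6.07 and 5.77 at 24 h and 4.78, 4.75 and 4.96 at 12 h, and the Cis arrays 5.53, 5.29 and 5.28 at 24 h and 5.11, 5.11 and 5.18 at 12 h. The 4 groups did not overlap, and Cis/TM held both the highest group, at 24 h, and the lowest, at 12 h. DTNA rose by 1.12 under Cis/TM, whereas its change under Cis, 0.23, did not pass the test (adjusted p = 0.17). The difference was 0.89 (standard error 0.16, adjusted p = 0.047). DTNA averaged 6.18 at 24 h of TM, 6.51 at 12 h of TM and 6.62 in Control.

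PRKCA and PDGFD act in signalling. PRKCA encodes protein kinase C alpha and had 7.63, 7.47 and 7.47 at 24 h of Cis/TM and 7.57, 7.52 and 7.45 at 12 h of Cis/TM. Cis 24 h gave 6.99, 6.78 and 6.79 and Cis 12 h gave 7.79, 8.01 and 7.71. The Cis/TM arrays of the 2 times overlapped, and the Cis arrays lay below them at 24 h and above them at 12 h. The change was 0.01 under Cis/TM (adjusted p = 0.96) and −0.98 under Cis (adjusted p = 6.9e-07), and the difference was 0.99 (standard error 0.14, adjusted p = 0.00666). PRKCA averaged 9.20 at 24 h of TM, 9.35 at 12 h of TM and 9.34 in Control.

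PDGFD, a ligand of the platelet-derived growth factor receptor beta, had 5.53, 5.32 and 5.36 at 24 h of Cis/TM and 4.86, 4.81 and 4.80 at 12 h of Cis/TM. It had 4.97, 4.48 and 4.77 at 24 h of Cis and 5.09, 5.27 and 5.17 at 12 h of Cis. The Cis/TM 24 h arrays were the highest and the Cis 12 h arrays came next, while the other groups overlapped. PDGFD differed by 1.02 (standard error 0.16, adjusted p = 0.0221), from changes of 0.58 under Cis/TM (adjusted p = 0.00063) and −0.44 under Cis (adjusted p = 0.0081) that both stayed within 1.5-fold. Its means were 5.86 at 24 h of TM, 6.09 at 12 h of TM and 6.16 in Control.

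DPYD encodes dihydropyrimidine dehydrogenase, which starts the breakdown of pyrimidines and of fluorouracil. Its levels were 7.95, 8.07 and 8.14 at 24 h of Cis/TM, 7.48, 7.26 and 7.23 at 12 h of Cis/TM, 6.99, 7.15 and 7.19 at 24 h of Cis and 7.13, 7.90 and 7.75 at 12 h of Cis. Every Cis/TM 24 h array was above the rest, and Cis 12 h A fell among the Cis 24 h arrays, apart from its own group. DPYD differed by 1.21 (standard error 0.21, adjusted p = 0.047), and by 1.45 (adjusted p = 0.000444) without Cis 12 h A. TM 24 h averaged 9.45, TM 12 h 9.49 and Control 9.56.

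LPP, a LIM-domain protein of focal adhesions, fell in both treatments. It had 5.75, 5.85 and 6.03 at 24 h of Cis/TM against 6.59, 6.38 and 6.45 at 12 h of Cis/TM, and 5.10, 5.22 and 5.13 at 24 h of Cis against 6.52, 6.52 and 6.71 at 12 h of Cis. The groups of 12 h overlapped between treatments and those of 24 h did not. LPP fell by 0.59 under Cis/TM and by 1.43 under Cis, a difference of 0.84 (standard error 0.14, adjusted p = 0.0412). LPP averaged 8.002 at 24 h of TM, 8.15 at 12 h of TM and 7.64 in Control.

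**Figure D2:**
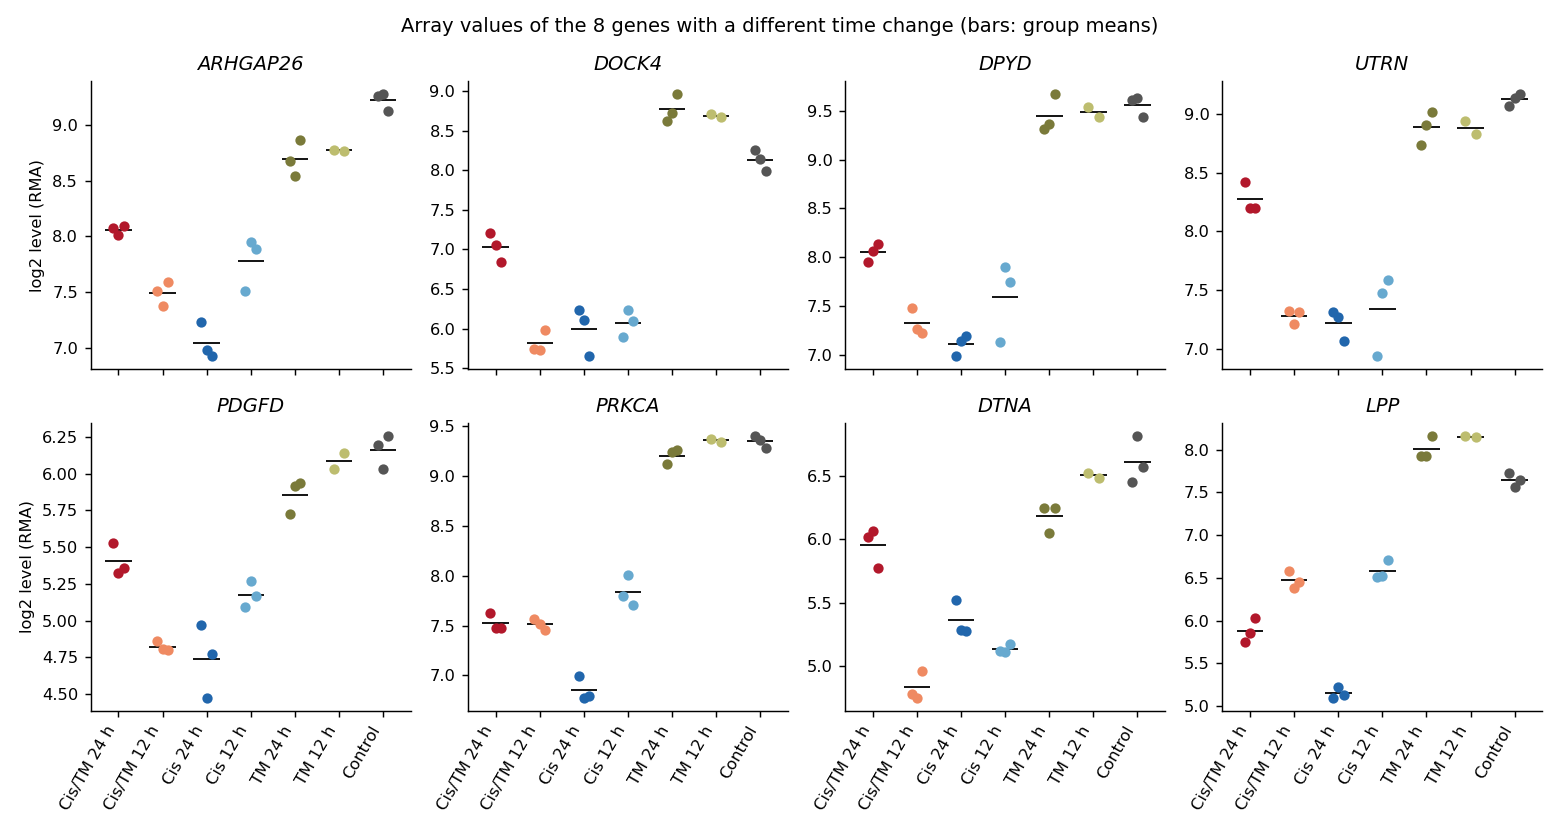
Log2 level of the 8 called genes on each array (points) with group means (bars), by treatment and time from Cis/TM 24 h to Control. In each panel the Cis/TM 24 h mean lies above the Cis 24 h mean and below the Control mean. The 24 h arrays are part of the contrast that chose these genes.

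At 24 h alone, all 8 genes were called higher in Cis/TM than in Cis, by 0.59 (DTNA, adjusted p = 0.0097) to 1.05 (UTRN, adjusted p = 0.0012), in a comparison that called 84 genes higher (0.456%) and 193 lower (1.05%). At 12 h the same comparison called 0 genes in either direction (limma), and 42 higher (0.228%) and 10 lower (0.0543%) at an unadjusted p under 0.05. Since the 24 h arrays are part of the contrast that chose the 8 genes, their level there is a description.

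The promoters of ARHGAP26 and PRKCA, which kept their call without any 1 array, are shown as examples of the called genes, which share the sign of the difference and not the course over time. All 8 matched the RefSeq promoter table (GRCh38.p14), and the windows cover the 250 bases before the annotated start, on the strand of the gene, with GC boxes (GGGCGG, or CCGCCC for the other strand) in capitals.
ARHGAP26, chr5:142770127-142770376, + strand: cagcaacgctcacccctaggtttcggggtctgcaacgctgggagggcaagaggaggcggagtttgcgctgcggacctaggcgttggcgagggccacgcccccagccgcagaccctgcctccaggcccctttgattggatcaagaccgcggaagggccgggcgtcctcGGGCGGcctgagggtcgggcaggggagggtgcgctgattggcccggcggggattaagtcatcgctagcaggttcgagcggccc
PRKCA, chr17:66302363-66302612, + strand: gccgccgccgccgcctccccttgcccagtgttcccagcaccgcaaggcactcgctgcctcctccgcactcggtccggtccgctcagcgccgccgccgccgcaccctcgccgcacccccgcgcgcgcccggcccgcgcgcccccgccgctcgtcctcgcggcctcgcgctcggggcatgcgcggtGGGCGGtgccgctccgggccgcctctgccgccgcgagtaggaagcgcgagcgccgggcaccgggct
A GC box was found in 7 of the 8 windows, LPP being the exception, and in 57.5% of the 14238 windows of tested genes. The letters TATAAA or TTTATA were in 0 of the 8 and in 8.6% of all, and CCAAT or ATTGG in 2 of the 8 and in 34.4%. The windows of ARHGAP26 and PRKCA held 69.2% and 82% G and C, against a median of 62.8%. These matches describe the letters only.

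Over all 18386 genes with a length, the difference had a rank correlation of −0.023 with gene length (Spearman, across genes), and the genes with the smallest p were split by length. Among the 60 genes with the smallest p for the difference, 25 were positive and 23 of these were over 200 kb, while 35 were negative and 25 of these were under 30 kb. Of the 144 genes higher at an unadjusted p, 52.8% of those with a length were over 200 kb. Of the 353 lower ones 0.852% were over 200 kb and 74.7% under 30 kb, where all genes gave 7.12% and 55.6%. The length classes were set after the called genes were seen.

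Length was followed in the genes whose mean over all 20 arrays was above the median of 5.84. The median difference over all 9208 such genes was −0.15. It was −0.13 for genes under 10 kb, −0.20 for 10 to 30 kb, −0.18 for 30 to 100 kb and −0.10 for 100 to 200 kb. The rank correlation with length was 0.11 over the 9200 of them with a length. The median was positive beyond 200 kb, with 0.07 for 200 to 300 kb, 0.24 for 300 to 500 kb and 0.44 for the 66 genes over 500 kb. Of those 66, 83.3% had a positive difference, against 25.2% of all genes above the median mean, and 28 were higher and 0 lower at an unadjusted p (0.782% and 1.92% of all genes). The values depended on the filter on level. Over all genes the median was 0.036 under 10 kb, 0.11 for 200 to 300 kb, 0.17 for 300 to 500 kb and 0.15 for the 292 genes over 500 kb, so the longest class was not the highest. Without Cis 12 h A the median difference of the 66 genes was 0.54, and over all 20 arrays left out in turn it stayed between 0.40 and 0.54.

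**Figure D3:**
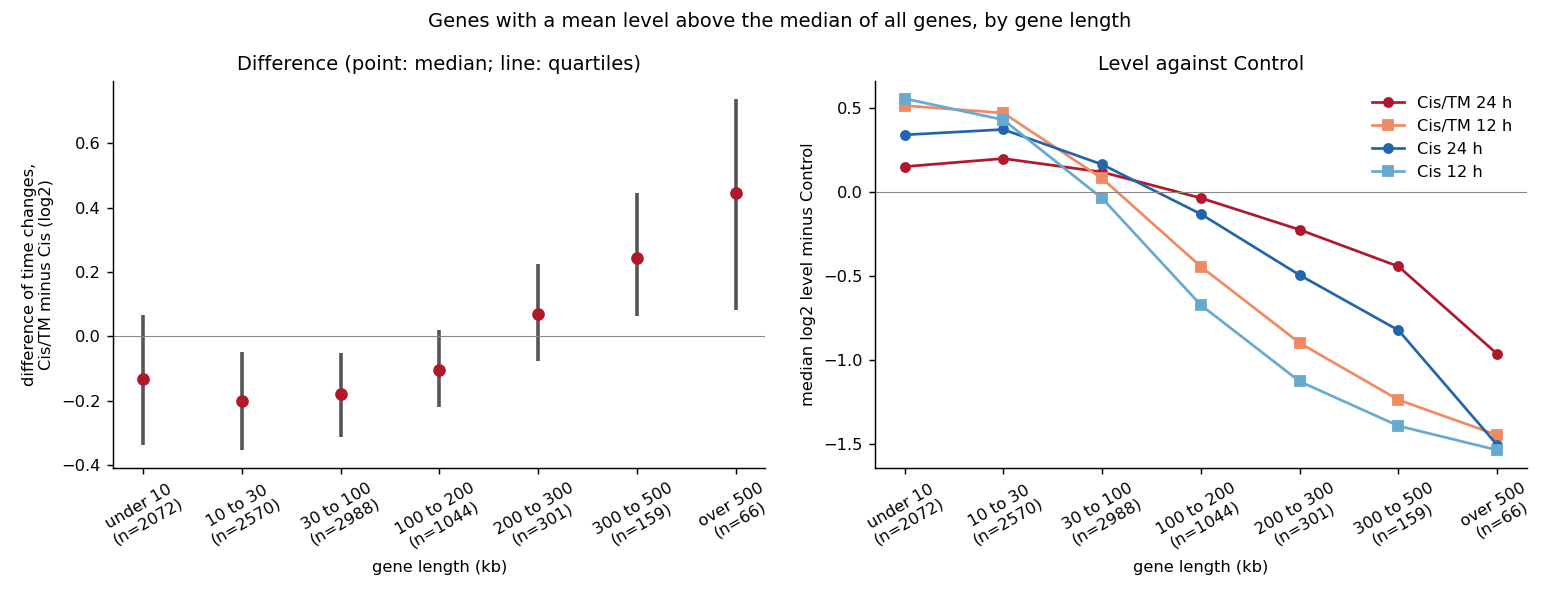
Genes with a mean above the median, by gene length. Left, the difference of time changes (Cis/TM minus Cis, log2; points are medians, lines quartiles), which is negative in the 4 classes under 200 kb and reaches 0.44 over 500 kb. Right, the median level of each class minus Control in the 4 groups, where Cis/TM 24 h lies nearest to 0 in every class over 100 kb. The mean used to choose the genes includes the Control arrays.

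Array by array, the median level of these 66 genes was 6.71, 6.58 and 6.52 at 24 h of Cis/TM and 6.26, 6.09 and 6.30 at 12 h of Cis/TM. It was 6.25, 6.13 and 6.21 at 24 h of Cis and 6.00, 6.33 and 6.17 at 12 h of Cis. The Cis/TM 24 h arrays were above the other 9, which overlapped one another, and all 12 were below TM (7.56 to 7.88) and Control (7.74 to 7.80). Among the 66, 31 were called higher at 24 h than at 12 h under Cis/TM (5.67% of all genes) and 8 lower (8.07%), whereas under Cis 11 were called higher (7.21%) and 13 lower (3.42%). Below Control, 43 were called at 24 h of Cis/TM (2.48% of all genes) and 51 at 24 h of Cis (4.9%), and at 12 h 57 in Cis/TM (8.55%) and 55 in Cis (10.8%). The filter on mean level used the Control and TM arrays too, so a gene high only there could pass it. That favours levels below Control among the 66, and the percentages are over all genes without the filter. These counts are therefore a description. Cis/TM was called above Cis at 24 h in 23 of the 66 (0.456% of all genes) and below it in 0 (1.05%).

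The median change between the times was positive in the classes over 30 kb. In the class of 300 to 500 kb, it was 0.70 under Cis/TM and 0.43 under Cis, and in the class of 200 to 300 kb 0.68 and 0.60. Over 500 kb it was 0.54 under Cis/TM and 0.10 under Cis. The medians of shorter genes were negative, −0.33 and −0.24 under 10 kb, and −0.26 and −0.08 from 10 to 30 kb. In all of these classes the Cis/TM median was farther from 0 than the Cis median, whereas from 30 to 200 kb it was the Cis median, with 0.03 under Cis/TM and 0.20 under Cis from 30 to 100 kb, and 0.42 and 0.52 from 100 to 200 kb.

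**Figure D4:**
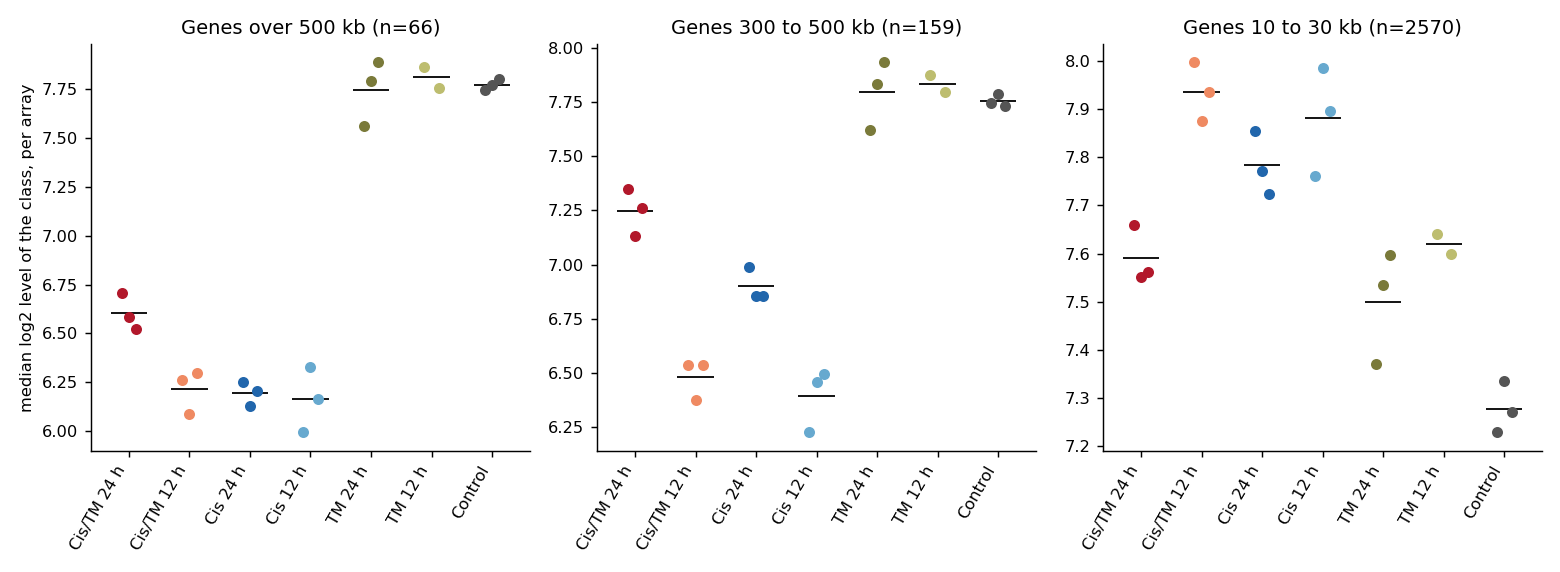
Median log2 level on each array (points; bars are group means) of genes over 500 kb (n = 66), 300 to 500 kb (n = 159) and 10 to 30 kb (n = 2570) with a mean above the median. The Cis/TM 24 h arrays stand above the Cis 24 h arrays for the long genes and below them for the short genes.

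The 66 genes over 500 kb differed among themselves, and the ones named next were chosen after their values were seen. ADK, which encodes adenosine kinase, had 8.18, 8.10 and 8.33 at 24 h of Cis/TM, 7.57, 7.28 and 7.56 at 12 h of Cis/TM, 7.41, 7.38 and 7.41 at 24 h of Cis and 7.37, 7.90 and 7.73 at 12 h of Cis. Its Cis/TM 24 h arrays were the highest of the 12, and its difference of 0.999 just missed the threshold (adjusted p = 0.0509). The receptor tyrosine phosphatase gene PTPRM fell in both treatments, by 1.31 under Cis/TM and by 2.12 under Cis, with a difference of 0.81 (adjusted p = 0.15). GPHN, which encodes the scaffold protein gephyrin, rose by 0.99 under Cis/TM and changed by 0.17 under Cis. ROBO1, a receptor for SLIT guidance cues, rose by 0.99 under Cis/TM and changed by 0.20 under Cis (difference 0.79, adjusted p = 0.114). NRG1, which encodes the ERBB ligand neuregulin, had 1.70 under Cis/TM and 1.60 under Cis, a difference of 0.10 (adjusted p = 0.898). At the other end, NEGR1, a neuronal adhesion gene, had the lowest difference of the 66, −0.31 (adjusted p = 0.507).

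Gene lists had medians on both sides of 0. Among them were 44 measured genes that are very long or lie at common fragile sites (sites that break when replication is slowed). Their median difference was 0.24 against −0.015 over all genes, and 38 of the 44 were positive against 47.5% of all genes. LPP and DPYD were the members called in the main fit, where 0.0434% of all genes were called higher, and 0 were called with median centring. At an unadjusted p 10 were higher (0.782% of all genes) and 0 lower (1.92%). The list of axon guidance and adhesion was also made of long genes, with a median length of 380 kb, so it is not separate from gene length. Its 47 measured genes had a median of 0.16 with 36 positive and 0 called in the main fit. At an unadjusted p 5 were higher, among them PTPRK and SEMA3E. For SEMA3E, a semaphorin, the value was 1.01 (adjusted p = 0.206).

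At the other end stood DNA replication, with a median difference of −0.32 over 62 measured genes, of which 61 were negative. Genes with a mean above the median had −0.15, with 74.8% negative. None of the 62 was called, and 6 were lower at an unadjusted p (1.92% of all genes). The median of the list kept its sign in every scaling. It was −0.18 with the trend with level removed, with 56 of the 62 negative. Genes with a mean above the median then had −0.02, with 54.3% negative. Without Cis 12 h A the list median was −0.24, beside −0.10 for genes with a mean above the median, and 1 gene of the list was lower at an unadjusted p. Over time, 7 of the 62 were called higher (5.67% of all genes) and 2 lower (8.07%) under Cis/TM, against 22 higher (7.21%) and 0 lower (3.42%) under Cis. The median level of the list was 8.97, 8.93 and 8.77 at 24 h of Cis/TM, 8.67, 8.66 and 8.66 at 12 h of Cis/TM, 9.06, 8.96 and 8.99 at 24 h of Cis and 8.35, 8.69 and 8.50 at 12 h of Cis, so that Cis 12 h A was the lowest of the 12.

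MCM3, a subunit of the replicative helicase, had 9.18, 8.98 and 9.11 at 24 h of Cis/TM and 9.10, 9.05 and 9.03 at 12 h of Cis/TM, against 9.33, 9.27 and 9.29 at 24 h of Cis and 8.53, 8.84 and 8.64 at 12 h of Cis. The Cis arrays did not overlap between the times and the Cis/TM arrays did. MCM3 changed by 0.03 under Cis/TM and rose by 0.63 under Cis (adjusted p = 8.1e-05), a difference of −0.60 with adjusted p = 0.159. MCM10, which acts at replication origins, changed by 0.09 under Cis/TM and rose by 0.67 under Cis. TK1, the thymidine kinase of S phase, changed by −0.53 under Cis/TM and 0.34 under Cis, with a difference of −0.86 (adjusted p = 0.23).

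Repair and division genes lay on the same side. The median difference was −0.26 for 41 genes of homologous recombination and crosslink repair, −0.28 for 43 of excision and mismatch repair and −0.24 for 77 of mitosis and the kinetochore, with none called, beside −0.15 for genes with a mean above the median. Without Cis 12 h A these medians were −0.15, −0.18 and −0.15 in that order, beside −0.10 for genes with a mean above the median. With the trend with level removed they were −0.11, −0.16 and −0.11, beside −0.02. Mitosis genes were called higher at 24 h in 24 of 77 under Cis/TM (5.67% of all genes) and in 38 of 77 under Cis (7.21%). BRCA1 had 0.999 under Cis/TM and 1.49 under Cis (difference −0.49, adjusted p = 0.395). CDCA5, which encodes the cohesion factor sororin, had 7.29, 7.14 and 7.22 at 24 h of Cis/TM, 8.46, 8.10 and 8.20 at 12 h of Cis/TM, 8.23, 8.11 and 7.84 at 24 h of Cis and 7.91, 8.43 and 8.08 at 12 h of Cis. Its Cis/TM 24 h arrays were the lowest of the 12, and it fell by 1.04 under Cis/TM, whereas the difference of −0.96 did not pass (adjusted p = 0.261). It passed in 1 of 12 alternative settings, not counting the 20 that leave out 1 array.

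Lists of housekeeping genes held members called lower over time in both treatments, in numbers whose difference was not tested. Over all genes 8.07% were called lower under Cis/TM and 3.42% under Cis. Of 77 genes of the mitochondrial ribosome and its translation, 33 were called lower at 24 h under Cis/TM and 9 under Cis, with 0 called higher in either. Of 48 subunits of RNA polymerases and general transcription factors 19 were called lower under Cis/TM and 3 under Cis, of 72 ribosome biogenesis genes 23 and 12, and of 34 proteasome subunits 9 and 4. The median differences were −0.25, −0.24, −0.24 and −0.21 in that order, beside −0.15 for genes with a mean above the median. All 34 proteasome subunits were negative, against 74.8% of genes with a mean above the median. In these lists 0 members were called for the difference in the main fit. With the trend with level removed the medians were −0.09, −0.10, −0.10 and −0.11, beside −0.02 for genes with a mean above the median. Of the 34 proteasome subunits 31 were then negative, against 54.3% of genes with a mean above the median. POLR2A, which encodes the catalytic subunit of polymerase II, fell by 0.81 under Cis/TM and changed by −0.21 under Cis (difference −0.61, adjusted p = 0.161). It was called with the prior variance as a trend of mean level. PSMC4, an ATPase of the proteasome cap, had −1.40 and −0.59.

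**Figure D5:**
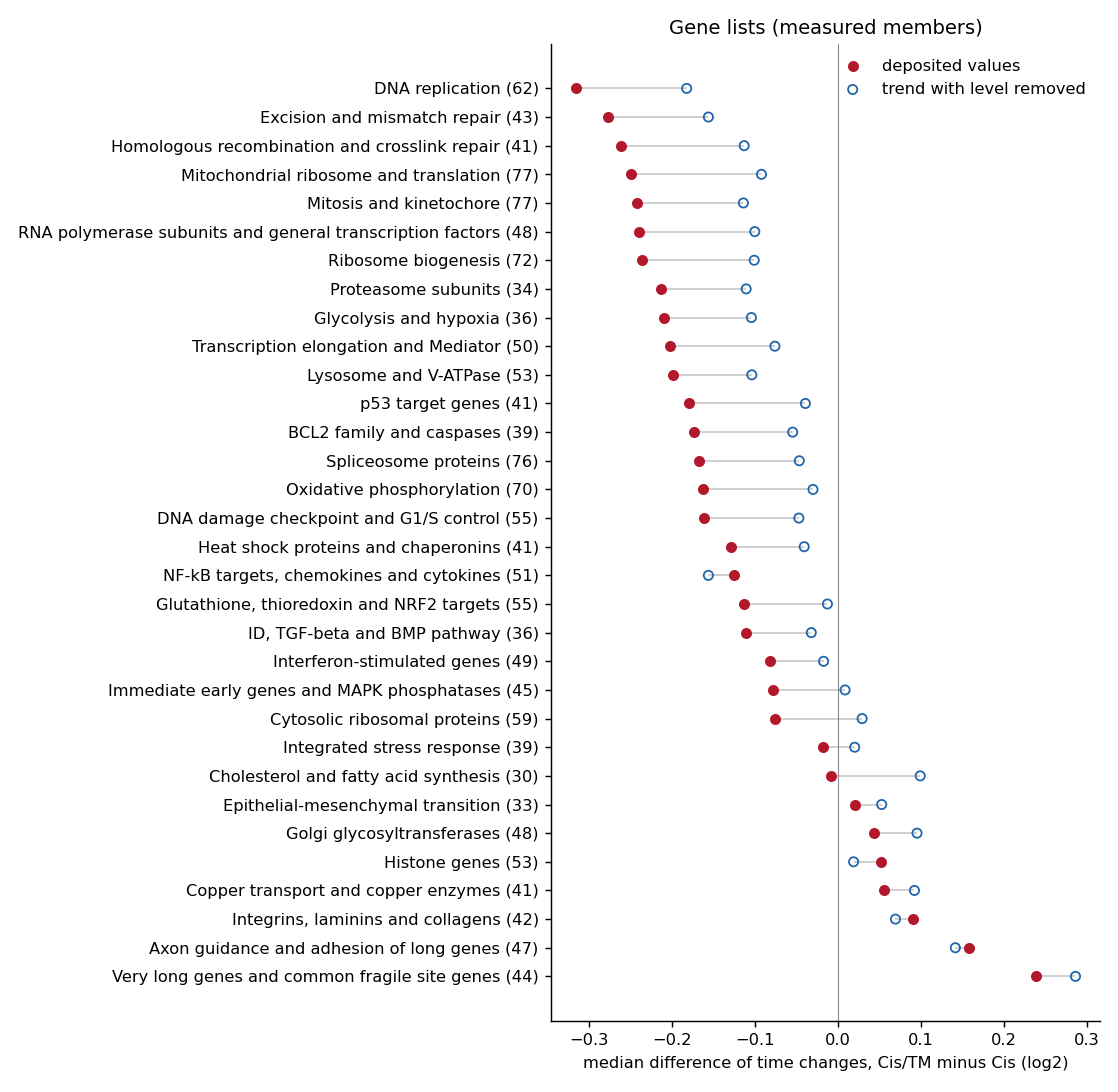
Median difference of time changes (Cis/TM minus Cis, log2) of 32 gene lists with the number of measured members, from the deposited values (filled) and with the trend with level removed (open). DNA replication lies lowest at −0.32 and the very long genes highest at 0.24, and most medians move towards 0 when the trend is removed.

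Copper genes were examined because TM binds copper. Over 41 measured genes of copper transport and copper enzymes the median difference was 0.06, with 0 called and 0 at an unadjusted p under 0.05 and over 1.5-fold, and over time 1 was called higher (5.67% of all genes) and 10 lower (8.07%) under Cis/TM, and 1 higher (7.21%) and 11 lower (3.42%) under Cis. ATP7A, a copper-exporting ATPase, had 8.06, 7.82 and 7.99 at 24 h of Cis/TM and 6.32, 6.41 and 6.44 at 12 h of Cis/TM. It had 7.41, 7.34 and 7.33 at 24 h of Cis and 5.68, 6.51 and 6.29 at 12 h of Cis. The arrays of 24 h stood above those of 12 h in both treatments, and Cis/TM 24 h was above Cis 24 h without overlap, at about the Control mean of 7.91. ATP7A rose by 1.57 under Cis/TM and by 1.198 under Cis, and the difference of 0.37 (95% interval −0.09 to 0.83, adjusted p = 0.549) did not pass. It was 0.61 (adjusted p = 0.2855) without Cis 12 h A and 0.20 (adjusted p = 0.6729) without Cis 12 h B. With the trend with level removed and without Cis 12 h A, a setting added after the data were seen, it was 0.75 (adjusted p = 0.0288) and passed.

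The related pump ATP7B averaged 4.14 over all 20 arrays, with a difference of 0.36 (95% interval −0.13 to 0.85), and SLC31A1, the copper importer CTR1, differed by 0.04 (95% interval −0.20 to 0.28). STAT3, a transcription factor of cytokine signalling, differed by −0.46 (adjusted p = 0.369), ABCB1, a drug efflux pump with levels from 3.22 to 3.74, by 0.26, and GSTP1, a glutathione transferase, by −0.53 (adjusted p = 0.309). None of these passed the test in the main fit. GSTP1 passed in 1 of 12 alternative settings, not counting the 20 that leave out 1 array. GSTP1 fell by 0.90 under Cis/TM and changed by −0.36 under Cis.

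The difference also moved with the level of a gene, which bears on the lists. In 4 equal classes of mean level, from low to high, its median was 0.11, 0.08, −0.14 and −0.17. With that trend removed from each array, 37 genes were called higher and 1 lower, and 35 of the 37 were over 200 kb. With quantile normalization 28 were higher and 2 lower, and 24 of the 28 were over 200 kb. The genes over 500 kb kept a positive median, 0.57 and 0.51, in those settings.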

How the data were processed

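RNA of MDA-MB-231 cells was measured on 20 Affymetrix Human Gene 1.0 ST arrays in 7 groups. The authors ran RMA and deposited log2 values for 33297 transcript clusters, which were used as they are. Small differences shrink near background under RMA, and without detection calls a low level may or may not be expression. The number of arrays limits the precision. The genome build of the array annotation is not given in the sources used here. Of the clusters, 19460 carried 1 symbol, 1754 several and 12083 none, and each of the 18417 genes was taken from its cluster with the highest mean over all arrays. RefSeq (GRCh38.p14) gave lengths for 18386.

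A linear model of 7 groups was fitted with limma 3.58.1 in R 4.3.3 (13 residual degrees of freedom), with eBayes moderation and Benjamini-Hochberg adjustment over all genes. Genes were called at an adjusted p under 0.05 and over 1.5-fold, as the methods name limma and a 1.5-fold change. The procedure was tested on simulated data. Members, lists and the rule for named genes were chosen with earlier results of these data known. By that rule the text names the called genes (up to 12 in each direction), up to 4 called members of each list, and ATP7A, ATP7B, SLC31A1, STAT3, ABCB1, CDCA5 and GSTP1, and genes beyond it were named after their values were seen. Lists were described by counts and medians, with no set test. Alternatives were other scalings, filters, probe set rules, array weights, fewer arrays, and the replicate letter as a block. No source says whether the letters pair the arrays. Deviations of same-letter arrays in different groups correlated with a median of 0.05 (−0.42 to 0.32 over 18 pairs), which does not settle it.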

Additional observations from a re-analysis of the deposited data

Results flagged for a closer look

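In 8 genes the change between 12 h and 24 h under Cis/TM differed from that under Cis by a test of the difference itself (limma, adjusted p under 0.05 over all genes). The difference was 1.30 for ARHGAP26, 1.29 for DOCK4, 1.21 for DPYD, 1.11 for UTRN, 1.02 for PDGFD, 0.99 for PRKCA, 0.89 for DTNA and 0.84 for LPP. All 8 are over 200 kb long. The groups are small, with 3 arrays each, and single arrays were examined by leaving each of the 20 out in turn. ARHGAP26 and PRKCA kept their call each time, and all 8 were called without Cis 12 h A, the array that stood apart. Of the 20 removals, 17 cost DPYD its call, 16 UTRN, 15 DTNA, 14 LPP, 8 DOCK4 and 8 PDGFD.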

How the results depend on the processing

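The 8 differences were positive under all alternatives run, and ARHGAP26 passed in all of them, among them the 20 that leave out 1 array. PDGFD lost its call in 6 of the 12 other settings, among them quantile normalization and the trend with level removed. The number of genes called higher, 8, was 3 with median centring, 28 with quantile normalization, 37 with the trend with level removed, 156 with array weights and 5 at a 2-fold minimum. It was 1 (ARHGAP26) with the 12 arrays alone, where the spread rests on fewer arrays. The number called lower, 0, was 2 with quantile normalization, 1 with the trend removed, 4 with the prior variance as a trend of mean level and 376 with array weights, in which Cis 12 h A had the lowest weight. With the replicate letter as a replicate block, 2 genes were called higher, ARHGAP26 and PRKCA, and 0 lower, and the block left the counts for the time changes within 1.5-fold. No source says what the letters stand for, so the reason why calls were lost under the block was not tested.

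Leaving out 1 array gave 2 to 24 genes higher and 0 to 1 lower, 959 to 1105 higher and 1283 to 1661 lower over time under Cis/TM, 929 to 1593 higher and 548 to 708 lower under Cis, and a median difference of 0.40 to 0.54 for genes over 500 kb. The median of these genes was 0.57 with the trend removed. Settings added after seeing the data gave 60 genes higher, 858 genes higher over time under Cis and a median of 0.67 for genes over 500 kb with the trend removed and without Cis 12 h A. Array weights without that array gave 86 higher, 74 lower and a median of 0.56, and the 12 arrays alone with the trend removed gave 23 higher. The causes were not tested.

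The limits are 3 arrays a group, no statement that arrays were separate cultures, no background measure for low genes, list medians that shrink with the trend removed, and length classes set after the called genes were known.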

Other observations

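Some genes of cell death and redox control were picked after their values were seen, and none passed the test in the main fit. ME1 was called with quantile normalization and with the trend with level removed, and CASP6 with array weights. The median difference was −0.17 over 39 genes of the BCL2 family and caspases, 25 of them negative. It was −0.11 over 55 genes of glutathione, thioredoxin and NRF2 targets, 37 of them negative. Genes with a mean above the median had −0.15, with 74.8% negative. With the trend with level removed the list medians were −0.055 and −0.013, beside −0.023 for genes with a mean above the median. CASP6, an executioner caspase, changed by −0.21 under Cis/TM and 0.77 under Cis (difference −0.98, adjusted p = 0.23). TXN2, the mitochondrial thioredoxin, had −1.18 under Cis/TM and −0.25 under Cis (difference −0.93, adjusted p = 0.325). In contrast ME1, which encodes the cytosolic malic enzyme, had 0.91 under Cis/TM and 0.18 under Cis (difference 0.73, adjusted p = 0.23).

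The negative difference with the smallest p was that of RFPL4A, which had 9.61, 9.46 and 9.49 at 24 h of Cis/TM, 11.50, 11.48 and 11.42 at 12 h of Cis/TM, 10.39, 10.44 and 10.25 at 24 h of Cis and 11.52, 11.61 and 11.50 at 12 h of Cis. The 12 h groups lay together, and the Cis/TM 24 h arrays were the lowest, above the Control mean of 7.74. It differed by −0.76 (standard error 0.15, adjusted p = 0.086). RFPL4A was called with quantile normalization and with the prior variance as a trend of mean level. The 411 small noncoding RNA genes had a median difference of 0.13, with 0 called. The median was −0.015 over all genes and 0.11 in the class of genes with the lowest mean level. Of the 411, 14 were higher (0.782% of all genes) and 2 lower (1.92%) at an unadjusted p. Whether the level of these RNAs accounts for their median was not tested.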
